A study of Mus musculus with 40 samples.

Results

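Transcript levels were compared between female 3xTg-AD mice, in the somatomotor cortex of the left hemisphere, 24 h after the last of 1 to 5 closed-head injuries (CHI), to ask which of them climbed or dropped step by step with the number of injuries. The 3xTg-AD line carries human disease transgenes in every mouse of the study, injured or not, so every group below is a group of 3xTg-AD females, aged 2 to 4 months. The samples were picked from the table of estimated gene counts by their labels, not by their values: all 4 Sham mice and all 24 h mice, which gave 4 mice with 1xCHI, 3 with 2xCHI, 4 with 3xCHI, 3 with 4xCHI and 4 with 5xCHI, or 22 of the 40 sequenced samples. CHI was a weight drop onto the closed skull under isoflurane, given once a day, and each injured mouse of this set was taken 24 h after its last impact. Sham mice, labelled 0 h, received anesthesia without an impact, and the study pooled shams that had been anesthetized different numbers of times. Because injuries were 24 h apart, the number of injuries also equals the number of days since the first one (24 h from the start for 1xCHI, 120 h for 5xCHI) and the number of anesthesia sessions in injured mice, and these cannot be told apart.

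Mice are named here by the number in their label. Total counts ran from 16976471 to 27859547 per mouse with a median of 20187262. Mouse numbers 1 to 18 and 19 to 40 were treated as separate ranges because earlier work on these data had seen them separate, although neither the labels nor the methods name the ranges as a batch. In this set 6 mice fell in the first range (1 Sham, 2 1xCHI, 1 3xCHI and 2 5xCHI) and 16 in the second, so 2xCHI and 4xCHI were present in the second range only. A 5xCHI animal, mouse 11, stood apart from the rest. Its score on the first principal component was -66.3, against -30.7 for the next most extreme mouse on that side, and limma-voom gave it a quality weight of 0.132, the lowest of the 22. Summed levels of the 20 microglial markers were 1581 CPM (counts scaled to a common library size) in mouse 11 and 491 to 763 CPM in the other 21 mice, while its 20 neuronal markers summed to 12150 CPM against 14900 to 18830 CPM elsewhere. The 20 astrocyte markers summed to 11190 CPM in mouse 11 and 6728 to 8956 CPM in Sham and 1xCHI to 4xCHI mice, and its 20 myelin genes to 11170 CPM against 4949 to 9097 CPM in the Sham and 1xCHI to 4xCHI mice. The part of these differences in the results below was not tested, and results that rest on mouse 11 are given with and without it. In bulk tissue, a lower level of a cell type's transcripts can come from fewer such cells, from less RNA per cell or from more RNA of other cells in the same library. These cannot be told apart.

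After a mechanical impact, astrocytes typically raise the intermediate filament proteins GFAP and vimentin and secrete protease inhibitors, and microglia raise complement, lysosomal and antigen presentation genes. Neurons depend on a large tubulin pool to maintain and regrow their axons, and glia supply much of the cholesterol that membranes and myelin require. Adrenal glucocorticoids act on brain cells through a nuclear receptor that directly switches on a well-known group of target genes. Groups of these kinds are among the 35 gene lists the trend was read for, and the tubulin list was added after leading genes had been seen.

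The line over 0 to 5 injuries passed the test for no gene. Slopes were fitted to all 15224 genes tested with the quasi-likelihood test of edgeR and are given as log2 units per injury, and 0 genes (0%) passed a Benjamini-Hochberg adjusted p of 0.05, the smallest adjusted p being 0.568. At an unadjusted p under 0.05 there were 1042 genes, where 761 would be expected if no gene changed. Of these, 691 had a rising slope, which is 4.54% of the genes tested, and 351 a falling slope, which is 2.31%. limma-trend also called 0 genes, with 837 at an unadjusted p under 0.05, and limma-voom with quality weights called 0, with 785. DESeq2 called 1 gene, Cd109, with an adjusted p of 0.0103. Adding the number range as a covariate left 0 genes called by edgeR, 1 by DESeq2 (again Cd109, adjusted p of 0.0253), and 1191 at an unadjusted p under 0.05, split into 699 rising (4.59%) and 492 falling (3.23%). Most genes were common to both versions, 962 of the 1042.

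The excess of rising genes came with mouse 11. It had the highest level of all 22 mice for 569 of the 691 rising genes and the lowest for 185 of the 351 falling ones. Without it, 510 genes had an unadjusted p under 0.05, 248 with a rising slope (1.63%) and 262 with a falling one (1.72%), and edgeR still called none of them. Only 340 of the original 1042 genes stayed at that level, 171 rising and 169 falling, although 1036 of the 1042 slopes kept their sign. Leaving out any other single mouse gave 941 to 1355 genes. Among the 16 mice numbered 19 to 40, 350 genes (2.3%) had an unadjusted p under 0.05 and 0 were called.

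**Figure D1:**
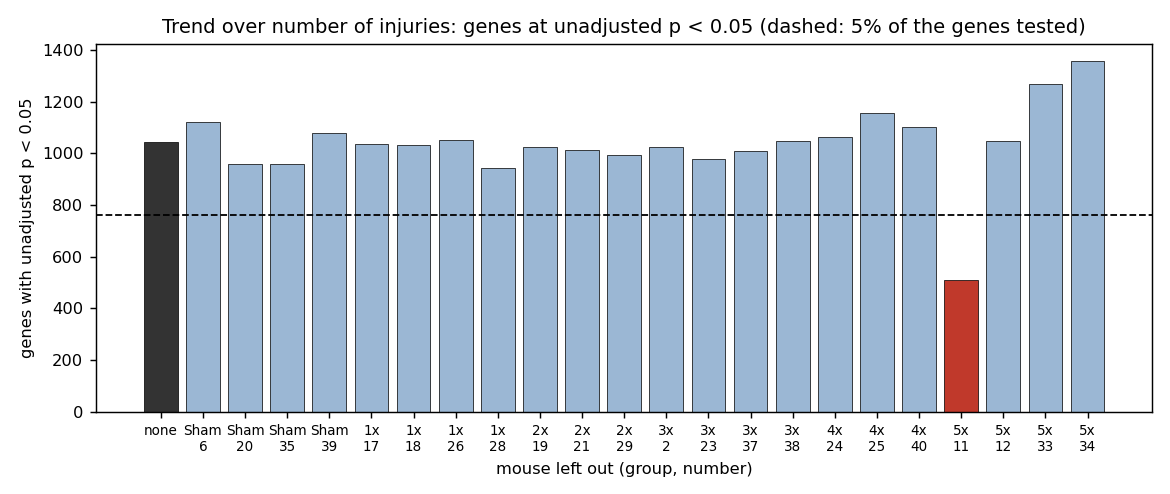
Bars give the number of genes with an unadjusted p under 0.05 for a linear slope on the number of injuries, with all 22 mice (dark bar) and with each named mouse left out. The dashed line marks 761 genes, 5% of those tested, and the bar without mouse 11 is the shortest at 510 while the others lie between 941 and 1355.

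The 12 genes with the smallest p for a rising slope were Cd109, Gpnmb, Serpina3n, Hmox1, A2m, Vim, Alox12b, S100a6, Adgre1, S100a4, Apod and Gfap, and none passed the adjusted threshold in edgeR. Cd109 (chr9:78615546-78716253, mm10) encodes a membrane-anchored protein that binds TGF-beta. In order of mouse number, its level was 0.603, 0.469, 0.700 and 1.13 CPM in Sham, 1.15, 0.786, 0.609 and 0.912 CPM after 1xCHI, 1.02, 0.785 and 0.907 CPM after 2xCHI, 1.54, 2.19, 3.18 and 3.99 CPM after 3xCHI, 1.94, 0.847 and 2.30 CPM after 4xCHI, and 11.5, 2.10, 1.37 and 1.15 CPM after 5xCHI. All 3xCHI and all 5xCHI mice lay above every Sham mouse, whereas 1xCHI, 2xCHI and 4xCHI overlapped Sham. Its slope was 0.51 ± 0.10 (SE, n = 22; edgeR unadjusted p = 5.17e-05), 0.31 ± 0.09 without mouse 11 (unadjusted p = 0.00244) and 0.30 among mice 19 to 40 (unadjusted p = 0.023).

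Serpina3n, a secreted inhibitor of serine proteases released by reactive astrocytes, measured 8.06, 7.64, 6.56 and 8.55 CPM in Sham, 6.45, 5.45, 7.59 and 9.27 CPM after 1xCHI, 7.66, 6.46 and 4.75 CPM after 2xCHI, 20.0, 24.0, 10.6 and 37.4 CPM after 3xCHI, 7.66, 4.61 and 10.7 CPM after 4xCHI, and 305, 16.1, 5.58 and 6.96 CPM after 5xCHI. Every 3xCHI mouse exceeded every Sham mouse, and 5xCHI spanned values from under the lowest Sham to mouse 11 far above all others. The slope of 0.68 ± 0.15 (unadjusted p = 0.000138) became 0.16 ± 0.11 without mouse 11 (unadjusted p = 0.15). Gfap, the standard marker of astrocyte reactivity, had levels of 149, 176, 133 and 125 CPM in Sham, 211, 186, 106 and 119 CPM after 1xCHI, 141, 118 and 137 CPM after 2xCHI, 486, 433, 254 and 531 CPM after 3xCHI, 202, 151 and 249 CPM after 4xCHI, and 2386, 191, 114 and 131 CPM after 5xCHI. The 3xCHI values were all above those of every other mouse except mouse 11, and the remaining 5xCHI mice overlapped Sham. Its slope of 0.44 ± 0.11 (unadjusted p = 0.000741) was 0.14 ± 0.09 without mouse 11 (unadjusted p = 0.143) and 0.15 among mice 19 to 40 (unadjusted p = 0.189).

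Gpnmb and Hmox1 rested on mouse 11 even more heavily. Gpnmb, a glycoprotein of lipid-laden and lysosome-rich phagocytes, was 65.2 CPM in mouse 11 and 0.709 to 4.41 CPM in the others, with a slope of 0.76 ± 0.16 that became 0.08 ± 0.08 without it. Hmox1, the enzyme that degrades heme, was 174 CPM in mouse 11 against 2.22 to 6.79 CPM, with slopes of 0.66 ± 0.15 with and 0.02 ± 0.04 without it. Vim, which encodes vimentin, was 757 CPM in mouse 11 and at most 109 CPM elsewhere, and its slope went from 0.49 ± 0.12 to 0.10 ± 0.07. In these 3 genes 5xCHI mice other than mouse 11 overlapped Sham. Alox12b, a lipoxygenase best known from skin, did not depend on that mouse: its slope was 0.14 ± 0.04 with it (unadjusted p = 0.000522) and 0.15 ± 0.04 without it (unadjusted p = 0.000491). Alox12b mean levels were 3.69 ± 0.79 CPM (SD, n = 4) in Sham, 5.10 ± 0.89 CPM (n = 3) after 4xCHI and 5.85 ± 1.78 CPM (n = 4) after 5xCHI, and each 5xCHI mouse lay above every Sham mouse. Mouse 12 stood apart among the 5xCHI mice for this gene, at 8.52 CPM against a group median of 5.01 CPM.

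**Figure D2:**
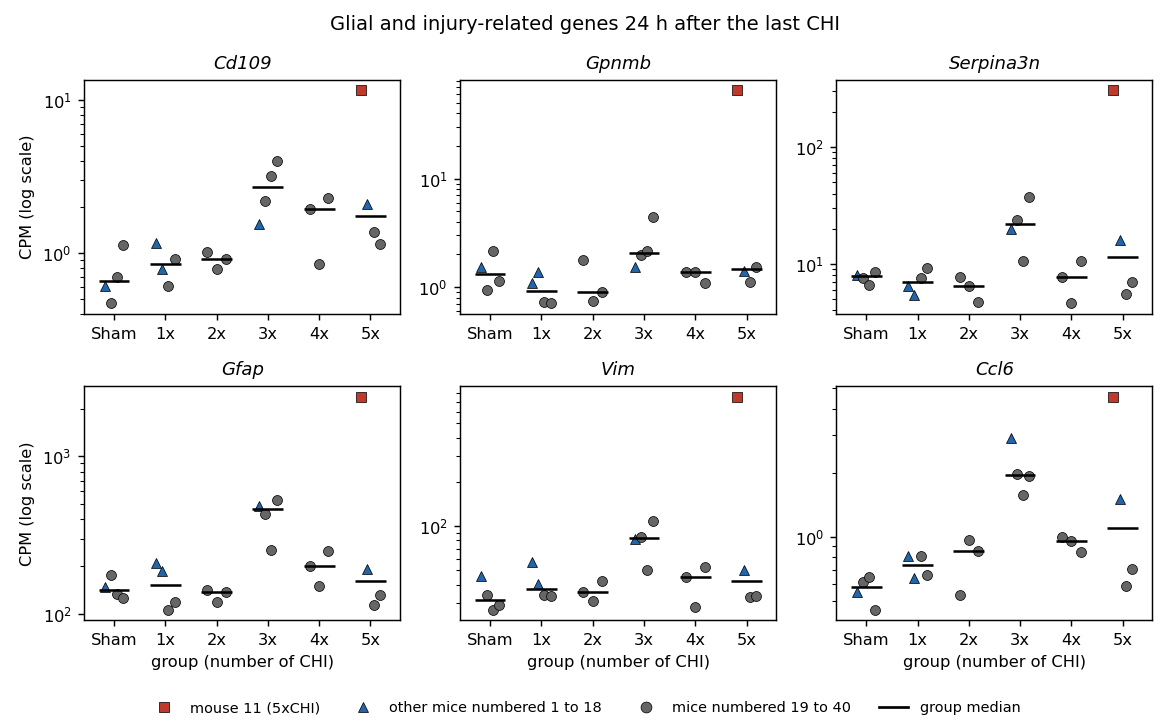
Each point is 1 mouse, with TMM-scaled CPM on a log axis against the group, mouse 11 as a red square, other mice numbered 1 to 18 as blue triangles, mice 19 to 40 as grey circles and the group median as a bar. For Gfap the 4 3xCHI mice lie between 254 and 531 CPM, above the 125 to 176 CPM of Sham, and the 5xCHI mice other than mouse 11 lie between 114 and 191 CPM.

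Several glial genes had, mouse 11 aside, their highest group levels after 3xCHI. The 20 microglial markers summed to 613.4 to 763 CPM after 3xCHI and 520.5 to 587.4 CPM in Sham, without overlap. The 20 astrocyte markers summed to 7530 to 8882 CPM and 7424 to 8956 CPM, with overlap. The part of these sums in the counts below was not tested. Among all genes tested, 1.33% had every 3xCHI mouse above every Sham mouse and 1.05% had every one below. In the list of pan-reactive astrocyte genes, 6 of 9 tested were above (Vim, Cd44, Gfap, Serpina3n, Aspg and Osmr), and none was below. Complement genes gave 7 of 12 (C1qa, C1qb, C1qc, C3ar1, C1ra, C1s1 and C4b), disease-associated microglial genes 7 of 17 (Cd9, Tyrobp, Ctsd, Lyz2, Cd68, Ccl6 and Grn), homeostatic microglial genes 5 of 20 (among them Olfml3 and the 3 C1q genes that are also in the complement list), and major histocompatibility genes 3 of 13 above (Tapbp, H2-Aa and Cd74) and 1 of 13 below (Psmb9). Counts above were 0 of 11 for A1-type astrocyte genes, 0 of 20 for astrocyte markers and 2 of 8 for A2-type astrocyte genes. They were 0 of 8 for cytokines and chemokines and 0 of 17 for interferon response genes. A count of 0 in lists this short is near the 1.33% of all genes and is no result about their members. Ccl6, itself a chemokine, was counted in the disease-associated microglial list and not in the cytokine list. After 5xCHI, with mouse 11 included, 0 of 9 pan-reactive, 0 of 12 complement and 0 of 17 disease-associated microglial genes were above every Sham mouse and none was below, beside 1.26% of all genes above and 1.23% below. After 1xCHI the same 3 lists gave 0, 0 and 0 above and none below (2.5% of all genes above, 2.61% below). After 2xCHI they gave 0, 0 and 0 above and 1, 1 and 0 below (4.2% of all genes above, 4.18% below), and after 4xCHI 0, 0 and 3 above and 1, 0 and 0 below (2.82% above, 2.8% below). Osmr, a receptor subunit for oncostatin M, was the pan-reactive gene below Sham after both 2xCHI and 4xCHI, and Serping1, a complement inhibitor, was the complement gene after 2xCHI. All of these comparisons share the same 4 Sham mice, and with 3 mice a group separates from Sham more readily than with 4, which the shares over all genes show.

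Plek and Ccl6 both had this shape. Plek (chr11:16971206-17052381) encodes pleckstrin, a protein kinase C substrate of blood and microglial cells, and measured 12.8, 12.0, 12.4 and 13.4 CPM in Sham, 11.1, 12.3, 14.2 and 13.9 CPM after 1xCHI, 15.1, 13.3 and 12.0 CPM after 2xCHI, 20.3, 18.4, 20.9 and 19.4 CPM after 3xCHI, 14.1, 13.3 and 15.9 CPM after 4xCHI, and 36.9, 14.0, 14.2 and 13.6 CPM after 5xCHI. The 4 3xCHI mice were above every other mouse but mouse 11, and the other 5xCHI mice were just above the highest Sham. Ccl6, a chemokine of myeloid cells, was 0.548, 0.613, 0.646 and 0.453 CPM in Sham, 0.807, 0.639, 0.812 and 0.658 CPM after 1xCHI, 0.533, 0.960 and 0.853 CPM after 2xCHI, 2.91, 1.98, 1.57 and 1.94 CPM after 3xCHI, 1.00, 0.953 and 0.850 CPM after 4xCHI, and 4.55, 1.50, 0.587 and 0.705 CPM after 5xCHI. Both 3xCHI and 4xCHI lay wholly above Sham for Ccl6, with 3xCHI the higher of the pair. C4b, a complement component made by astrocytes and microglia, averaged 22.6 ± 5.80 CPM (SD, n = 4) in Sham and 62.0 ± 17.7 CPM (n = 4) after 3xCHI, and Cd68, a lysosomal protein of phagocytes, was 7.45 to 10.7 CPM after 3xCHI against 2.74 to 6.96 CPM in Sham.

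Tests of shape were run across all genes. With all 22 mice, edgeR called 0 genes (0%) for any difference among the 6 groups, with 712 at an unadjusted p under 0.05, and 0 genes (0%) for departure of the group means from the line, with 563 at that level. Without mouse 11 it called 2 genes for any difference (0.0131%), Gfap with an adjusted p of 0.0304 and Plek with 0.0453. For departure from the line it then called 1 gene (0.00657%), Gfap at an adjusted p of 0.0318, and Plek had an adjusted p of 0.0914. Mouse 12, the other 5xCHI mouse with a number under 19, lay between mouse 11 and the remaining 5xCHI mice for Gfap (191 CPM), Serpina3n (16.1 CPM) and Ccl6 (1.50 CPM), and among the remaining ones for Plek (14.0 CPM). Without both mice, 4 genes (0.0263%) were called for any difference, namely Ccl6 and Gfap (adjusted p = 0.00777 each, edgeR) and Plek and Serpina3n (adjusted p = 0.0415 each), and 3 (0.0197%) for departure from the line, namely Gfap and Ccl6 (adjusted p = 0.0141 each) and Serpina3n (adjusted p = 0.0435). Mouse 11 was singled out after its values had been seen, although each mouse was also left out in turn. Leaving it out narrows the 5xCHI spread of Gfap and Plek themselves, so the calls made without it are not independent of that choice. The removal of both mice was likewise chosen after their values had been seen, and it leaves 5xCHI with 2 mice.

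Over whole gene lists, the median slope tells the same contrast between mice. Across all genes tested the median slope was 0.0005 log2 per injury, and 0.0001 without mouse 11, and 4.54% of all genes had a rising slope at an unadjusted p under 0.05, or 1.63% without mouse 11. Pan-reactive astrocyte genes had a median slope of 0.27, with 7 of 9 rising at an unadjusted p under 0.05, and without mouse 11 a median of 0.06 with 0 of 9. Disease-associated microglial genes went from 0.15 and 14 of 17 to 0.03 and 1 of 17. Complement genes went from 0.17 and 7 of 12 to 0.07 and 2 of 12, and homeostatic microglial genes from 0.07 and 11 of 20 to 0.02 and 2 of 20. Among general astrocyte markers 9 of 20 had a rising slope at that level with mouse 11 and 0 of 20 without. No member of these 5 lists passed the adjusted threshold in either version.

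Listed synaptic and receptor genes gave no slope at an unadjusted p under 0.05, which is near the shares over all genes. Synaptic vesicle release genes had 0 of 20 with an unadjusted p under 0.05 in either direction and a median slope of -0.01. Glutamate and GABA receptor genes had 0 of 21 and -0.01. Over all genes tested, 4.54% were rising and 2.31% falling at that level. Without mouse 11 both medians turned to 0.01. Cacng4, a receptor subunit gene given below, was in neither list. Neuron markers gave 2 of 20 falling and interneuron genes 4 of 20 falling, beside 2.31% of all genes, and without mouse 11 these counts were 1 of 20 and 3 of 20, beside 1.72%. Median slopes of both lists were -0.02 and -0.01, and turned to 0.003 and 0.004 without mouse 11. Interferon response genes gave 0 of 17 in either direction, beside 4.54% of all genes rising and 2.31% falling. Immediate early genes, which neurons switch on with activity, had a median slope of -0.06 with 1 of 19 rising, beside 4.54% of all genes, and 0 falling, and a median of -0.05 without mouse 11. After 5xCHI 3 of 19, among them Npas4 and Nr4a3, had every mouse below every Sham mouse, beside 1.23% of all genes. Hemoglobin genes, a measure of blood left in the tissue, had 1 of 5 falling, beside 2.31% of all genes, and a median of -0.08. Of 16 genes of circulating immune cells only 3 were high enough to test, and Ly6g, which defines neutrophils, was at 0 in all 22 mice.

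**Figure D3:**
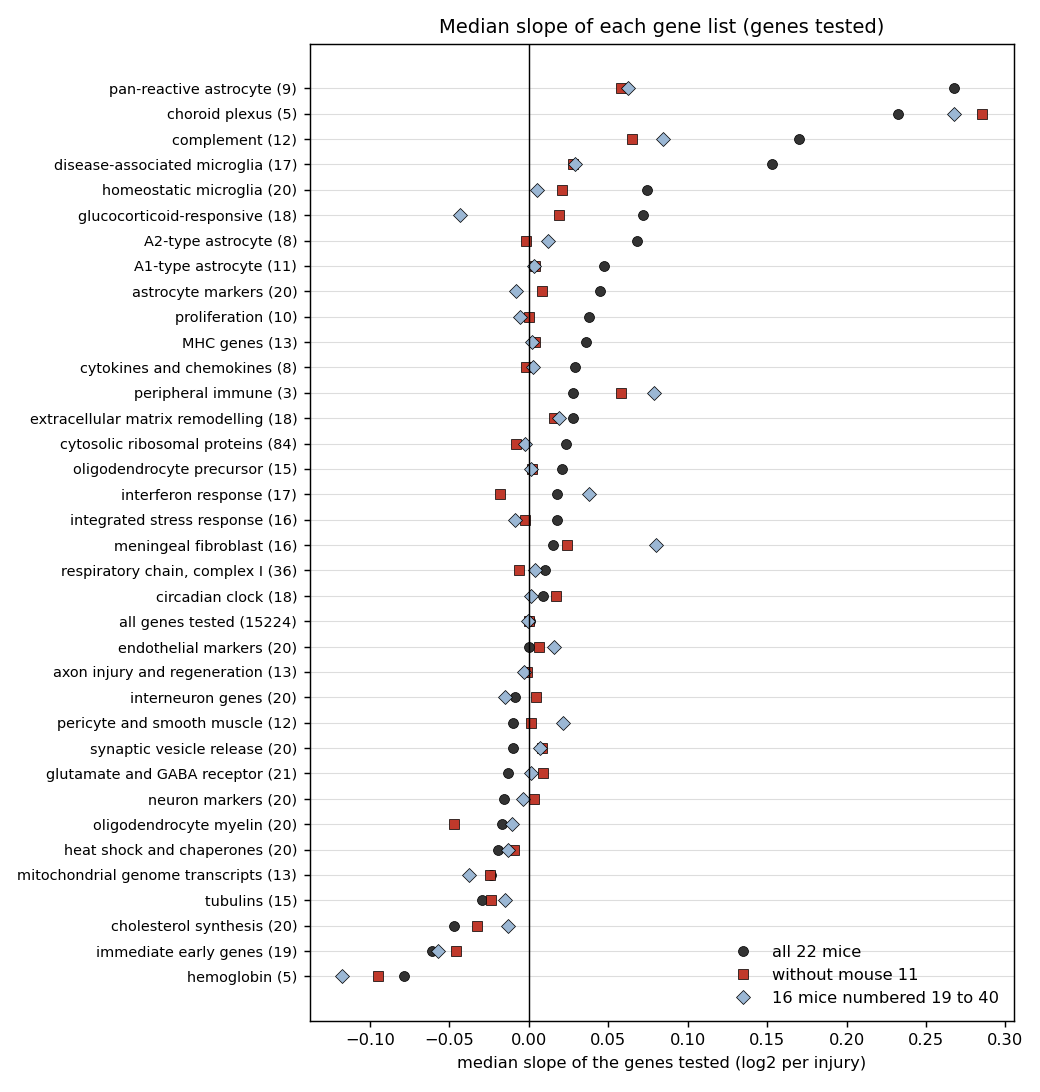
Each row is a gene list with the number of genes tested in brackets, and points give the median slope in log2 per injury with all 22 mice (black circles), without mouse 11 (red squares) and among the 16 mice numbered 19 to 40 (blue diamonds). Pan-reactive astrocyte genes sit at 0.27 with all mice and at 0.06 in both other versions, while tubulins and cholesterol synthesis genes stay below 0 in every version.

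Falling slopes were shallow, and they leaned less on mouse 11. The 12 genes with the smallest p were Vegfa, Tnnc1, Dhcr7, Tubb4a, Tubb3, Zdhhc23, Aif1l, Cort, Cacng4, Gpr83, Cycs and Lpar1, none of them past the adjusted threshold. Only 7 genes with an unadjusted p under 0.05 had a slope under -0.2, against 70 with a slope over 0.2. Vegfa (chr17:46016993-46032369), the growth factor of blood vessels, measured 97.8, 95.9, 89.5 and 80.2 CPM in Sham, 98.9, 75.8, 63.7 and 75.6 CPM after 1xCHI, 79.5, 81.9 and 74.0 CPM after 2xCHI, 71.9, 63.3, 61.9 and 78.5 CPM after 3xCHI, 66.0, 84.1 and 69.8 CPM after 4xCHI, and 56.8, 65.6, 71.9 and 70.6 CPM after 5xCHI. All 3xCHI and 5xCHI mice were below every Sham mouse, and the other groups overlapped Sham. The slope was -0.08 ± 0.02 (unadjusted p = 0.000457), -0.07 ± 0.02 without mouse 11 (unadjusted p = 0.00155) and -0.05 among mice 19 to 40 (unadjusted p = 0.027).

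Cacng4, an auxiliary subunit of AMPA-type glutamate receptors, was 27.9, 28.2, 27.8 and 33.1 CPM in Sham, 26.2, 24.8, 34.4 and 25.3 CPM after 1xCHI, 19.5, 24.1 and 25.9 CPM after 2xCHI, 24.9, 18.7, 24.3 and 21.5 CPM after 3xCHI, 22.5, 27.0 and 24.6 CPM after 4xCHI, and 25.1, 20.5, 20.7 and 23.6 CPM after 5xCHI. Every mouse with 2 or more injuries was below every Sham mouse, and after 1xCHI a single mouse was above them all. Its slope of -0.07 ± 0.02 (unadjusted p = 0.00198) was -0.08 ± 0.02 without mouse 11 (unadjusted p = 0.000934) and -0.09 among mice 19 to 40 (unadjusted p = 0.00558). Aif1l, an actin-binding relative of the microglial gene Aif1, averaged 8.30 ± 0.99 CPM (SD, n = 4) in Sham, 6.72 ± 0.49 CPM (n = 3) after 4xCHI and 5.93 ± 0.84 CPM (n = 4) after 5xCHI. All 2xCHI, 4xCHI and 5xCHI mice were below every Sham mouse for Aif1l, with a slope of -0.08 ± 0.02 and of -0.09 ± 0.02 without mouse 11. Aif1 itself had a slope of 0.13 ± 0.07 (unadjusted p = 0.0672) and of -0.01 ± 0.05 without mouse 11.

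Several tubulin genes were among the falling ones. Tubb3, the beta-tubulin that marks neurons, measured 296, 300.4, 257 and 246 CPM in Sham, 315, 269.7, 261 and 274 CPM after 1xCHI, 239, 279 and 252 CPM after 2xCHI, 247, 248, 265 and 240.1 CPM after 3xCHI, 272, 279 and 236 CPM after 4xCHI, and 179, 202, 229 and 239 CPM after 5xCHI. Only 5xCHI lay wholly below Sham. The slope of Tubb3 was -0.06 ± 0.02 (unadjusted p = 0.00112), -0.05 ± 0.02 without mouse 11 (unadjusted p = 0.00332) and -0.03 among mice 19 to 40 (unadjusted p = 0.0948). Tubb4a, a beta-tubulin of neurons and oligodendrocytes, had -0.06 ± 0.02 and -0.05 ± 0.02 without mouse 11, and Tubb5, a widely used beta-tubulin, had -0.05 ± 0.01 and -0.04 ± 0.01. Of 15 tubulins tested, 7 were falling at an unadjusted p under 0.05, also 7 with the covariate and 7 without mouse 11, beside 2.31%, 3.23% and 1.72% of all genes. The tubulin list was drawn up after Tubb3 and Tubb4a had been seen among the leading genes, and near-identical tubulins can share reads. In mouse 11, where the neuronal markers summed lowest, Tubb3 was also lowest, and the part of that in the slope was not tested beyond leaving the mouse out.

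Tac1 was among the 12 leading falling genes once the covariate was added. Tac1, the precursor of substance P, ranged over 9.27 to 21.8 CPM in Sham and 4.73 to 13.2 CPM after 5xCHI, with overlap, and its slope was -0.17 ± 0.05 (unadjusted p = 0.00292), -0.14 ± 0.05 without mouse 11 and -0.16 among mice 19 to 40. Cycs, cytochrome c of the respiratory chain, was 98.9 to 127 CPM in Sham and 83.4 to 101 CPM after 5xCHI, with a slope of -0.06 ± 0.02 that was the same without mouse 11. Gpr83, a G protein-coupled receptor of neurons, had a slope of -0.07 ± 0.02, and -0.08 ± 0.02 without mouse 11. Respiratory chain complex I as a list gave 0 of 36 genes at an unadjusted p under 0.05, beside 4.54% of all genes rising and 2.31% falling.

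**Figure D4:**
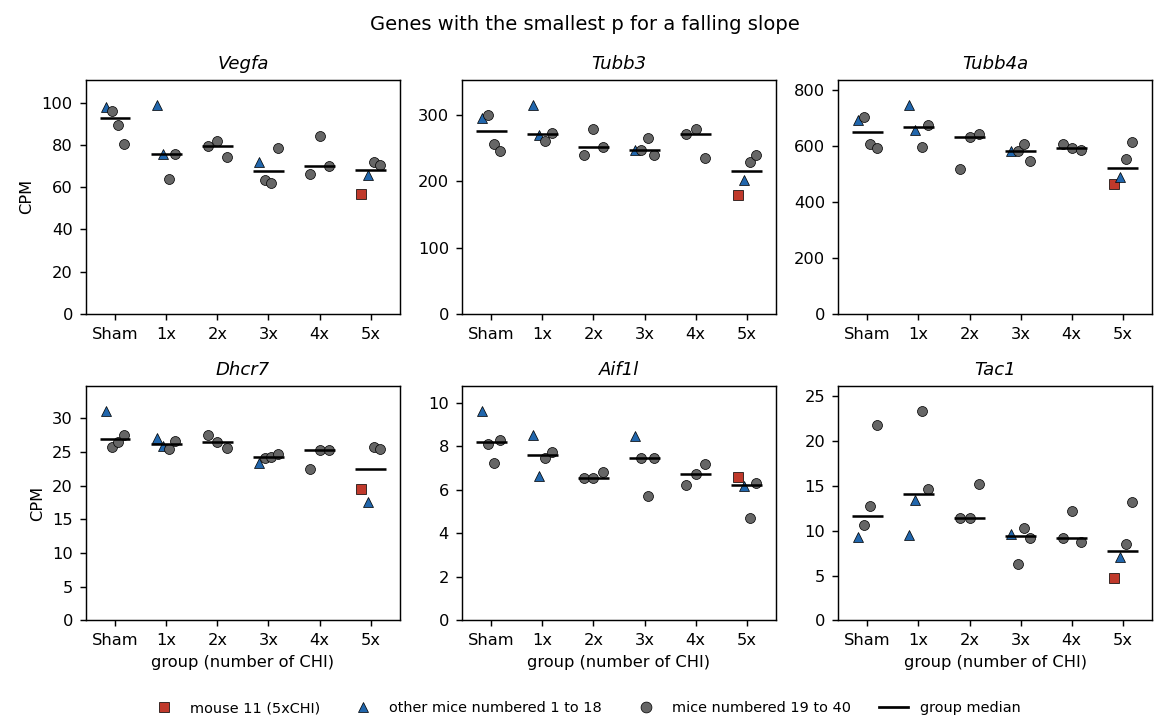
Points are mice, with TMM-scaled CPM on a linear axis from 0 against the group and the group median as a bar, in the symbols of the rising genes. Vegfa in the 5xCHI mice lies between 56.8 and 71.9 CPM, below the 80.2 to 97.8 CPM of Sham, while Tac1 in 5xCHI overlaps Sham.

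Choroid plexus genes had steep slopes, with high levels in a few mice. Ttr, transthyretin, which choroid plexus epithelium secretes into the cerebrospinal fluid, was 17.1, 13.1, 2.96 and 15.7 CPM in Sham, 22.3, 19.1, 9.18 and 10.7 CPM after 1xCHI, 20.5, 13.7 and 135 CPM after 2xCHI, 14.2, 11.6, 6.40 and 9.66 CPM after 3xCHI, 793, 6.30 and 9.10 CPM after 4xCHI, and 12.6, 384, 34.4 and 14.4 CPM after 5xCHI. Mice 24 (4xCHI), 12 (5xCHI) and 29 (2xCHI) held the high values and each of their groups still overlapped Sham. Its slope was 0.83 ± 0.24 (unadjusted p = 0.00217) and 0.89 ± 0.24 without mouse 11. Kl, the aging-related hormone gene klotho, was 40.2 CPM in mouse 24 and 11.0 CPM in mouse 12 against 1.67 to 5.81 CPM in the other mice. Of 10 choroid plexus markers 5 were high enough to test, and 2 of these had a rising slope at an unadjusted p under 0.05 (4.54% of all genes), or 4 without mouse 11 (1.63%). Col8a1, a collagen chain of vessel walls and membranes, was also highest in mice 24 (10.9 CPM) and 12 (8.73 CPM), with a slope of 0.22 ± 0.06 without mouse 11 (unadjusted p = 0.000651, edgeR). Mouse 11 had the lowest 5xCHI level of this gene, 2.07 CPM, and the slope with it is not given here. Col8a1 was added after its values were seen. Summed over the 10 markers, the choroid plexus level was 1460 CPM in mouse 24, 723 CPM in mouse 12 and 415 CPM in mouse 29, and its part in these slopes was not tested.

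The slope itself differed between the number ranges for some genes, and here the test did make calls. edgeR called 79 genes for a slope that differed between mice 1 to 18 and mice 19 to 40, 71 with the higher slope in mice 1 to 18 (0.466% of genes tested) and 8 with the lower one (0.0525%). Of the 71, 65 had their highest level in mouse 11 and 6 in mouse 12, both 5xCHI. Without mouse 11 the test called 2 genes (0.0131%), Htra1 (adjusted p = 0.0386, edgeR) and Lrg1 (adjusted p = 0.0349), and without both mice 0, with 436 genes at an unadjusted p under 0.05. Without mouse 12 alone it called 966. Since the mice 1 to 18 with 5 injuries are mice 11 and 12 alone, a slope in that range and the levels of those 2 mice cannot be told apart.

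Glucocorticoid-responsive genes were among those called, with 5 of 18 listed genes (Fkbp5, Plin4, Sult1a1, Hif3a and Cdkn1a) all 5 with the higher slope in mice 1 to 18, beside 0.466% of all genes. Such calls were not particular to this list. The same test called 5 of 20 homeostatic microglial genes, 4 of 20 astrocyte markers and 2 of 12 complement genes. Fkbp5 (chr17:28399094-28517527), the co-chaperone that restrains the glucocorticoid receptor and is one of its most reliable targets, measured 22.3, 26.6, 30.9 and 27.7 CPM in Sham, 18.4, 17.5, 31.6 and 19.5 CPM after 1xCHI, 27.6, 20.4 and 25.1 CPM after 2xCHI, 23.6, 24.9, 30.0 and 34.4 CPM after 3xCHI, 24.5, 23.7 and 19.1 CPM after 4xCHI, and 69.8, 67.6, 22.9 and 26.0 CPM after 5xCHI. The 5xCHI group was thus divided, with mice 11 and 12 about equally high and mice 33 and 34 inside the Sham range. Its slope was 0.39 in mice 1 to 18 and -0.04 in mice 19 to 40 (difference 0.43 ± 0.07, adjusted p = 0.00625, edgeR), and without mouse 11 the difference was 0.39 with an adjusted p of 0.0632.

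Plin4, a coat protein of lipid droplets, was 79.8 and 50.8 CPM in mice 11 and 12, 4.26 and 6.74 CPM in mice 33 and 34, and 6.28 to 13.7 CPM in Sham. Hif3a, a hypoxia-inducible factor subunit, was 31.2 and 24.5 CPM in mice 11 and 12 against 4.67 to 11.2 CPM in the other 20. Over the whole list, 6 of 18 genes had a rising common slope at an unadjusted p under 0.05 (4.54% of all genes) and 1 of 18 without mouse 11 (1.63%). Plin4, Sult1a1 and Hif3a had every 4xCHI mouse below every Sham mouse, 3 of 18 beside 2.8% of all genes, and 2 of 18 were below after 1xCHI (2.61%). Outside that list, Mfsd2a, the lysolipid transporter of the blood-brain barrier, was 34.2 and 26.7 CPM in mice 11 and 12 and 9.39 to 19.9 CPM in the rest (slope difference 0.36 ± 0.05, adjusted p = 0.00468, edgeR). Htra1, a secreted serine protease of astrocytes, was 317 and 198 CPM in them and 101 to 166 CPM in the rest, with a slope difference of 0.29 ± 0.04 and of 0.20 without mouse 11.

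Cholesterol synthesis genes made up most of the opposite side. Of the 8 genes with the lower slope in mice 1 to 18, 6 were among the 20 listed, beside 0.0525% of all genes, including Sqle, Dhcr7, Hmgcs1, Nsdhl and Msmo1, which encode enzymes of the pathway. Outside the list were Lpar1, a lysophosphatidic acid receptor of myelinating cells, and Ift52, a part of the transport machinery of cilia. Hmgcs1 (chr13:119690379-119708260), an early enzyme of the pathway, measured 320.5, 303, 322 and 312 CPM in Sham, 256, 233, 316 and 293 CPM after 1xCHI, 352, 272 and 249 CPM after 2xCHI, 269.8, 272, 298 and 308 CPM after 3xCHI, 294, 268 and 312 CPM after 4xCHI, and 129, 137, 278 and 293 CPM after 5xCHI. Mice 11 and 12 held the lowest values of the 22, and all 5xCHI mice lay below every Sham mouse. The slope was -0.22 in mice 1 to 18 and -0.02 in mice 19 to 40 (adjusted p = 0.0251 for the difference, edgeR).

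Sqle, squalene epoxidase, was 25.6 and 26.9 CPM in mice 11 and 12 and 40.8 to 59.5 CPM in the other 20, with slopes of -0.20 and 0.00 in the first and second range. Dhcr7, which completes cholesterol, was 19.6 and 17.6 CPM in them against 22.4 to 31.0 CPM, and its 3xCHI, 4xCHI and 5xCHI mice all lay below every Sham mouse. In the common slope, 7 of the 20 cholesterol genes were falling at an unadjusted p under 0.05, 12 with the covariate and 4 without mouse 11, beside 2.31%, 3.23% and 1.72% of all genes, with a median slope of -0.05, -0.05 and -0.03. Among mice 19 to 40 the median was -0.01. After 5xCHI, 5 of the 20 (among them Cyp51, Dhcr7, Hmgcs1 and Sqle) had every mouse below every Sham mouse, beside 1.23% of all genes. The same held for 4 of the 20 after 1xCHI (2.61% of all genes), 1 after 2xCHI (4.18%), 2 after 3xCHI (1.05%) and 1 after 4xCHI (2.8%), so such separation was not limited to 5xCHI.

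**Figure D5:**
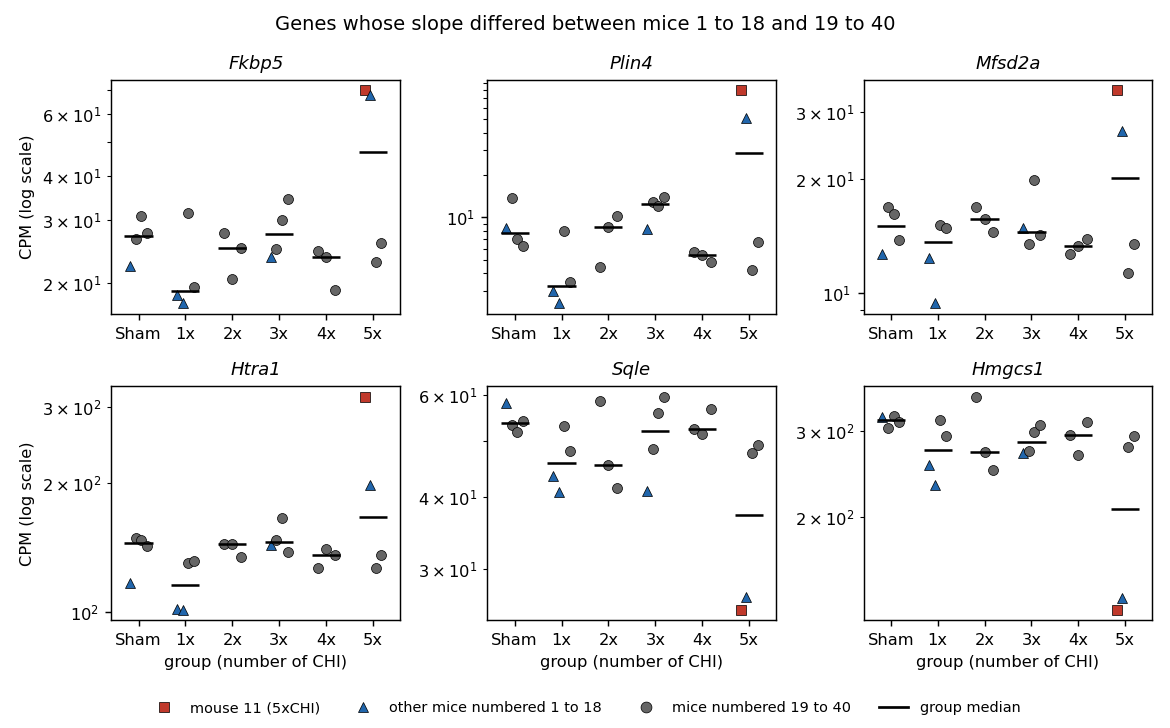
Points are mice, with TMM-scaled CPM on a log axis against the group and the group median as a bar, in the symbols of the rising genes. For Fkbp5, mice 11 and 12 (69.8 and 67.6 CPM) lie above all 20 others, while for Hmgcs1 the same pair (129 and 137 CPM) lies below them.

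Cholesterol genes are known to be switched on together by the sterol-sensing factor SREBF2, which acts with the CCAAT-binding factor NF-Y. Promoter windows of 300 bases (250 before and 50 after the start, RefSeq, GRCm38.p6) were held for 13 of the 20 listed genes, and these genes had 15 windows, of which 12 contained CCAAT or its reverse complement ATTGG, as did 37.4% of 32851 windows of all genes. The 8-letter sterol element CACCCCAC, searched separately on both strands, was in 2 of the 15 windows and in 2.87% of all windows. The windows of Hmgcs1 (chr13:119690101-119690400, plus strand) and Nsdhl (chrX:72918271-72918570, plus strand), whose slopes both differed between ranges, are shown because each holds 4 matches to CCAAT on either strand, printed in capitals.
Hmgcs1: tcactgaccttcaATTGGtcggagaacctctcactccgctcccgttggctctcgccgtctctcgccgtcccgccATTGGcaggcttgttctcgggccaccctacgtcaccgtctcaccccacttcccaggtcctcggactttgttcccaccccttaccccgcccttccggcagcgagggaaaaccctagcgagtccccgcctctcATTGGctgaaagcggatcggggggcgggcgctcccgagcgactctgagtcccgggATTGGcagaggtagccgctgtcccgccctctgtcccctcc
Nsdhl: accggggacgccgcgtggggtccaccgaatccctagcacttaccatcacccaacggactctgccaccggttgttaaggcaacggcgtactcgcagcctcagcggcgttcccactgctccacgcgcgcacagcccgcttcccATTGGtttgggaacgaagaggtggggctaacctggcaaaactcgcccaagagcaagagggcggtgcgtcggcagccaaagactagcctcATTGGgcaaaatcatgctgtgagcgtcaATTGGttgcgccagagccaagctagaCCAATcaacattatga
In the Hmgcs1 window all 4 matches read ATTGG, and in the Nsdhl window 3 read ATTGG and 1 CCAAT. These matches are descriptions of sequence, and binding was not measured.

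Departures from the line were led, with all 22 mice, by genes unlike the glial ones. The 6 with the smallest p were Svep1, Abl1, Igfbp5, Clmn, Eid2 and Abca2, none called (adjusted p of at least 0.969 in edgeR). Abl1, a tyrosine kinase that acts on the cytoskeleton, measured 57.5, 52.8, 54.5 and 54.6 CPM in Sham, 47.1, 45.4, 45.9 and 44.6 CPM after 1xCHI, 41.3, 42.0 and 43.3 CPM after 2xCHI, 47.8, 54.0, 50.9 and 58.8 CPM after 3xCHI, 51.7, 43.7 and 50.2 CPM after 4xCHI, and 45.8, 50.3, 48.3 and 51.0 CPM after 5xCHI. Every 1xCHI, 2xCHI, 4xCHI and 5xCHI mouse was below every Sham mouse and only 3xCHI overlapped (departure unadjusted p = 0.000333). Eid2, a small nuclear regulator of differentiation, had the opposite shape, with 22.8 to 25.9 CPM in Sham, 29.2 to 32.3 CPM after 1xCHI and 24.1 to 30.1 CPM after 3xCHI. Igfbp5, a binding protein of insulin-like growth factors, averaged 189 ± 19.2 CPM (SD, n = 4) in Sham, 150.1 ± 5.24 CPM (n = 3) after 2xCHI and 218 ± 20.2 CPM (n = 4) after 3xCHI.

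Lists of mitochondrial and ribosomal protein genes held members that separated from Sham in some groups. Transcripts of the mitochondrial genome had 7 of 13 above every Sham mouse in all 1xCHI mice, among them mt-Nd2, mt-Nd4 and mt-Nd5, beside 2.5% of all genes, and 1 of 13 after 2xCHI (4.2%). After 4xCHI 1 of 13, mt-Nd4, was below every Sham mouse (2.8%). Nuclear complex I genes had 9 of 36 above in all 2xCHI mice, among them Ndufc2 and Ndufb4, beside 4.2% of all genes. The count was 1 of 36 after 1xCHI (2.5%), 0 of 36 after 3xCHI (1.33%), 6 of 36 after 4xCHI (2.82%) and 0 of 36 after 5xCHI (1.26%). A count of 0 or 1 of 36 is near these shares, and 2xCHI and 4xCHI are the groups of 3 mice, which separate from Sham more readily. Cytosolic ribosomal protein genes had 8 of 84 above after 1xCHI (2.5% of all genes), 9 of 84 after 2xCHI (4.2%), 1 of 84 after 3xCHI (1.33%), 7 of 84 after 4xCHI (2.82%) and 0 of 84 after 5xCHI (1.26%). Median slopes of these 3 lists were -0.02, 0.01 and 0.02, and turned to -0.01 without mouse 11 for complex I and for ribosomal proteins, where 7 of 36 and 24 of 84 slopes were above 0 in place of 33 and 80. At an unadjusted p under 0.05, 0 of 13, 0 of 36 and 2 of 84 genes had a rising slope, beside 4.54% of all genes.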

How the data were processed

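Left-hemisphere somatomotor cortex RNA of 40 female 3xTg-AD mice was sequenced, and 22 of these samples entered here. The study left out an outlier sample that its paper does not name by number, and its sample sizes place it in the 3xCHI 4 h group. Sample 30 of that group was taken to be the one left out. No sample of that group is a member of this set. The deposited table holds the authors' estimated counts per gene for 55539 features, 4.46% of the values not whole. The submitters' processing notes name the mm10 build, and the aligner and counter are not given in the sources used here. Counts were rounded to whole numbers. After the rule in the study's methods, a gene was dropped if over 4 of the study's 39 samples had a deposited count under 10 for it. Applied here, this left 15224 genes, which is not the study's number. Symbols and IDs were those of the table, and coordinates came from GENCODE M21, which held 55450 of the IDs.

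Slopes on the number of injuries (0 to 5) were fitted with R 4.3.3 and edgeR 4.0.16 (TMM scaling, quasi-likelihood F test, two-sided, Benjamini-Hochberg over all genes, called at an adjusted p under 0.05), without and with the range of mouse numbers as a covariate. Further F tests compared the 6 group means, the departure of those means from the line, and the slopes of both ranges. DESeq2 1.42.0, limma 3.58.1 and sva 3.50.0 served for alternatives. The scripts were tested on simulated data. CPM are counts scaled to a common library size with TMM, and levels of different genes were not compared. "Above" or "below every Sham mouse" means no overlap in CPM. Nothing in the labels says that mice of a group were housed or processed apart, so p-values measure the spread between these samples. In each group every pair of samples differed by more than sampling noise (30 pairs, chi-square per gene of at least 7.3). The precision of each value is limited by 3 or 4 mice per group and by totals of 16976471 to 27859547 counts.

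The members, the gene lists and the range division were chosen with earlier results of these data known. Named genes were the 12 rising and 12 falling with the smallest p in each trend (average of at least 1 CPM, no Gm or Rik names), up to 4 per list by p, the 6 leading genes of the departure and of the slope difference, and Gfap, Vim, Serpina3n, Aif1 and Cd68. Plek, C4b, Cd9, Ctsd, Grn, Olfml3, C1ra, C1s1, Aspg, Osmr, H2-Aa, Cd74, Psmb9, Serping1, Col8a1, Lrg1, Hif3a, Cdkn1a, Sqle, Hmgcs1, Msmo1 and Ift52 were added after their values were seen, and so was the tubulin list. A few members of the lists are counted but not reported by name here.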

Additional observations from a re-analysis of the deposited data

Results flagged for a closer look

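A sample was marked in a group of 4 mice when its gap to the nearest other mouse, as a share of the whole range of the group, was above Dixon's 95% critical value. Over the 68 genes named with values or in counts and 272 groups, 40 were marked, of which 25 were mouse 11 in 5xCHI, and chance marks about 1 in 20 groups of genes that were not selected. Most of these genes were chosen for their slope or after their values had been seen, so the count cannot be read against that rate. The gap of mouse 11 was 0.908 for Cd109, 0.993 for Gpnmb, 0.965 for Serpina3n, 0.994 for Hmox1, 0.947 for A2m, 0.976 for Vim, 0.956 for S100a6, 0.894 for Adgre1, 0.971 for S100a4, 0.924 for Apod and 0.966 for Gfap. It was 0.921 for Cd44, 0.893 for C1qc and for C1qa, 0.856 for C1qb, 0.946 for Lyz2, 0.87 for Tyrobp, 0.934 for C3ar1, 0.885 for Aif1, 0.92 for Cd68, 0.971 for Plek, 0.881 for C4b, 0.86 for Aspg and 0.988 for Ndufc2, all on the high side, and 0.86 for mt-Nd5 on the low side. Mouse 12 stood high in 5xCHI for Alox12b (0.927), Ttr (0.941) and Kl (0.876).

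In other groups, mouse 17 stood high after 1xCHI for A2m (0.928) and Nsdhl (0.889), mouse 26 for Cacng4 (0.853) and Fkbp5 (0.857), and mouse 28 for Lrg1 (0.969). After 3xCHI, mouse 23 stood low for A2m (0.942) and Tnnc1 (0.868). In Sham, mouse 39 stood high for Cacng4 (0.92), mouse 35 low for Gpr83 (0.851), mouse 6 high for Lyz2 (0.938), and mouse 20 high for C1qa (0.849) and mt-Nd4 (0.916).

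Slopes differed between mice 1 to 18 and 19 to 40 for 79 genes in edgeR. Among the genes named above, the slope in mice 1 to 18 minus that in mice 19 to 40 was 0.97 log2 per injury for Hmox1, 0.36 for Mfsd2a, 0.29 for Htra1, 0.43 for Fkbp5, 0.42 for C1qc, 0.39 for C1qb, 0.86 for Plin4, 0.46 for Sult1a1, 0.49 for Hif3a, 0.39 for Cdkn1a and 0.55 for Lrg1. It was -0.11 for Dhcr7, -0.21 for Lpar1, -0.14 for Nsdhl, -0.19 for Sqle, -0.20 for Hmgcs1 and -0.16 for Msmo1. Without mouse 11 the difference was 0.04 for Hmox1, 0.15 for C1qc and for C1qb, and 0.25 for Cdkn1a, and the others named here kept their sign and moved by less than 1.5 times.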

How the results depend on the processing

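DESeq2 called 1 gene in the trend and 1 with the number range as a covariate, where edgeR called 0 in both. The scaling, filter, surrogate variable, limma and other alternatives left both counts at 0, as did leaving out any 1 mouse (0 to 0). Gfap had an adjusted p over 0.05 throughout, with a slope of 0.14 to 0.49 over the mice left out (0.16 to 0.40 with the covariate), 0.23 with limma-trend, 0.25 with 1 surrogate variable and 0.10 with limma-voom quality weights. DESeq2 gave Gfap no p in the trend, as for 44 genes in all. Leaving out 1 mouse moved the count for any difference among groups over 0 to 2, for departure from the line over 0 to 1, and for a slope that differs between number ranges over 2 to 966. In the last, the count was 2 without mouse 11, 966 without mouse 12, 122 without mouse 2, 28 and 32 without mice 17 and 18, and 50 and 45 without mice 33 and 34, against 79 with all. Without both mice 11 and 12 the 3 counts were 4, 3 and 0. That removal, the robust edgeR fit, the quality weights and the focus on mouse 11 were chosen after seeing the data. The cause of these shifts was not tested. No paired analysis was possible because every mouse has a number of its own and groups share none.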
